A study of Danio rerio with 4 samples.

Results

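Aminoacyl-tRNA synthetases were followed in zebrafish liver RNA from a cadmium exposure. The genes were taken by name: each gene whose symbol in the annotation of the array platform is that of a synthetase, of an aimp scaffold protein or of eef1e1. This gave 34 of the 15554 genes with a symbol, read by 56 of the 43603 probes. They comprised 17 cytosolic synthetase genes (gars1 and kars1, whose products also serve mitochondria in vertebrates, are counted here), 14 mitochondrial ones and 3 scaffold genes, aimp1a, aimp1b and aimp2. Other genes of the same naming pattern are not analysed here. The study compared liver RNA of fish at day 4 with 5 µM cadmium against day 4 controls without cadmium, with 2 RNAs in each group, as a trial of a custom array. The dose is in the unit of the design text, where a sample label has a different one. The labels used here do not state strain, age, sex or pooling of the fish, so errors measure only the spread between these RNAs.

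A synthetase joins one amino acid to its tRNAs and so supplies the ribosome with building blocks. Most vertebrate amino acids have a cytosolic enzyme and a separate, nuclear-encoded mitochondrial one, which charges the tRNAs of the organelle's own genome. Several cytosolic enzymes sit with the AIMP proteins in a large multisynthetase complex. The enzymes fall into 2 structural classes, of which class I has a Rossmann fold at its active site and class II an antiparallel sheet. In mammalian cells a shortage of charged tRNA is read by the kinase GCN2, and the transcription factor ATF4 that acts below it turns on many cytosolic synthetase genes. The liver makes most plasma proteins and breaks down most amino acids, so it draws heavily on these enzymes.

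Each of 4 two-colour arrays set 1 control RNA against 1 cadmium RNA in a closed loop, so every RNA was read on 2 arrays, once in each dye. Array 1 held control replicate 2 and cadmium replicate 1, array 2 control replicate 3 and cadmium replicate 1, array 3 control replicate 3 and cadmium replicate 2, and array 4 control replicate 2 and cadmium replicate 2. All array values below are log2 ratios turned to cadmium over control, and RNA values are log2 values solved from the loop and centred on 0 over the RNAs. The deposited ratio is read as Cy5 over Cy3, which is likely but not stated, and under the opposite reading every sign turns. These are ratios and not levels, so genes cannot be ranked by abundance and the liver label cannot be checked from marker levels. Arrays 3 and 4, which carry cadmium replicate 2, had the wider spread (standard deviations of 0.388 and 0.353 over all probes, against 0.198 and 0.230 on arrays 1 and 2). Of 23 markers of ovary and oocytes, cadmium replicate 2 had the highest value for 23, with medians of -0.41, -0.14, -0.68 and 1.25 in control replicates 2 and 3 and cadmium replicates 1 and 2, and single markers between -1.05 and 1.94. Exocrine pancreas markers, 19 genes, had medians of 0.73, -0.86, 0.01 and 0.32 in the same order. The medians of 14 hepatocyte, 9 red cell and 14 leukocyte markers all lay between -0.10 and 0.08 in every RNA. Single markers spread more widely on the arrays, from -1.08 to 0.84, -1.16 to 1.57 and -0.97 to 0.34 in that order. Control replicate 2 was the highest RNA for 6 of 9 red cell markers. Of the 14 leukocyte markers, 13 were lower in the cadmium RNAs on average.

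The largest differences among the cytosolic enzymes were those of qars1, mars1, lars1b and tars1, whose values were higher in both cadmium RNAs than in both controls. These genes encode the glutaminyl-, methionyl-, leucyl- and threonyl-tRNA synthetases, and the first 3 enzymes belong to the multisynthetase complex. The log2 difference of cadmium minus control was 0.94 ± 0.20 for qars1, 0.69 ± 0.17 for mars1, 0.63 ± 0.08 for lars1b and 0.46 ± 0.16 for tars1 (moderated SE, 2 RNAs per group). In linear terms these are 1.92-fold, 1.61-fold, 1.55-fold and 1.38-fold. No member passed the test. In limma 0 of the 34 members and 0 of 15554 genes (0% of all genes) had a Benjamini-Hochberg adjusted p under 0.05, and the smallest adjusted p of any member was 0.9998. At an unadjusted p under 0.05 there were 4 members, the genes just named, or 11.8% of the members, against 2.02% of all genes. All 4 lay on the higher side, where 1.07% of all genes were found.

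For qars1 (Entrez Gene 394188) the array values were 0.90, 0.50, 1.21 and 1.14 on arrays 1 to 4. Its RNA values were -0.55 and -0.39 in control replicates 2 and 3 and 0.23 and 0.71 in cadmium replicates 1 and 2. Thus the groups did not overlap, and the wider gap to the controls was that of cadmium replicate 2. The limma p of qars1 was 0.0091 before adjustment, and its 3 probes were at 0.90, 0.90 and 1.02.

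The array values of lars1b (Entrez Gene 569778) were 0.73, 0.58, 0.67 and 0.54. They were the most even of the leading genes, with RNA values of -0.32 and -0.31 in the controls and 0.34 and 0.29 in the cadmium RNAs. Its unadjusted p in limma, 0.0017, was the smallest of the 34 members, and by the size of moderated t it stood at rank 11 of all genes. Both probes lay on the higher side on every array, at 0.83 and 0.43.

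The array values of mars1 (Entrez Gene 338183), read by 1 probe, were 0.71, 0.35, 0.75 and 0.94. Its RNA values were -0.48 and -0.21 in the controls against 0.19 and 0.50 in the cadmium RNAs. For tars1 (Entrez Gene 449661) the arrays gave 0.52, 0.07, 0.65 and 0.61, and the RNAs -0.33 and -0.13 against 0.06 and 0.40. Array 2, which joins control replicate 3 and cadmium replicate 1, was thus the lowest for qars1, mars1 and tars1. The 3 probes of tars1 were at 0.47, 0.63 and 0.29, and the last was at -0.14 on array 2.

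The remaining cytosolic genes lay closer to 0 and on both sides of it. The tyrosyl enzyme gene yars1 was at 0.25 ± 0.10, with array values of 0.12, 0.21, 0.22 and 0.43 and no overlap between the groups. On the other side, the alanyl enzyme gene aars1 was at -0.29 ± 0.15, with array values of 0.14, -0.73, -0.20 and -0.36. The seryl enzyme gene sars1 was at -0.15 ± 0.10. For aars1 and sars1 both cadmium RNAs lay below both controls, although array 1 was on the higher side. For the isoleucyl enzyme gene iars1, a complex member read by 1 probe, the arrays gave -0.18, -0.04, -0.31 and -0.94. Its difference was -0.37 ± 0.24, and it was the only cytosolic gene with all 4 arrays on the lower side. The groups of iars1 overlapped, with RNA values of 0.38 and -0.01 in the controls and 0.07 and -0.44 in the cadmium RNAs. Without cadmium replicate 2 the difference of iars1 was -0.11. The asparaginyl enzyme gene nars1 was at 0.17 ± 0.11 and farsa, for a subunit of the phenylalanyl enzyme, at -0.19 ± 0.14. Of the other cytosolic members, hars was at 0.20, cars1 at 0.12, vars1 at 0.08, kars1 at 0.07, gars1 at -0.007, farsb at -0.06 and wars1 at -0.15. The lysyl enzyme gene kars1, singled out after its values were seen, differed more between the controls than between the groups, with -0.36 in control replicate 2 and 0.29 in control replicate 3. Pancreas markers also separated these controls, in the opposite order, and their part in the kars1 values was not tested. In the cadmium RNAs kars1 was at 0.02 and 0.05.

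**Figure D1:**
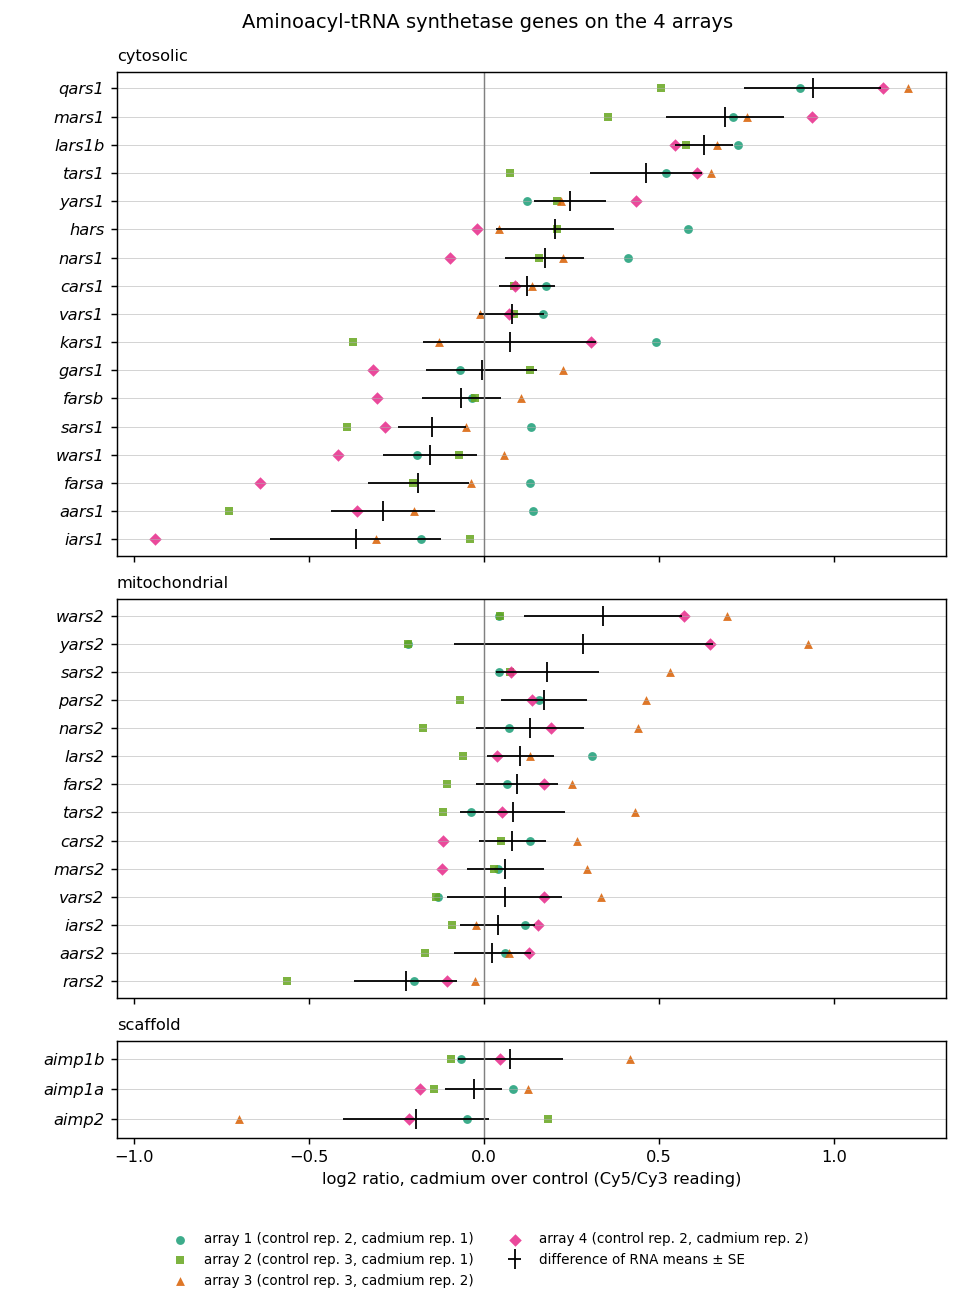
Log2 ratio of cadmium over control (horizontal axis) for each of the 34 genes (rows) in 3 panels for cytosolic enzymes, mitochondrial enzymes and scaffolds. Coloured points are the 4 arrays and the black mark is the difference of RNA means with its moderated SE (2 RNAs per group). All 4 points of qars1, mars1, lars1b and tars1 lie right of 0, whereas most mitochondrial genes have points on both sides.

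Counted over the group, 10 of the 17 cytosolic genes lay above 0 and 7 below, or 58.8%, where 56.9% of all genes lay above. The share was thus near the background. The median was 0.079, against 0.017 for all genes, and the median size regardless of sign was 0.19 against 0.074. All 4 arrays were on the higher side for 6 cytosolic genes and on the lower side for 1, and among all 34 members for 8 (23.5%) and 2, beside 7.99% and 6.9% of all genes. Both cadmium RNAs lay above both controls for 7 cytosolic genes and below for 2. Among all members this held for 10 (29.4%) and 3, against 11.7% and 10.2% of all genes. Of the 56 probes, 15 were higher on all 4 arrays (26.8%, against 6.38% of all probes). Of these 15, 10 belonged to qars1, mars1, lars1b, tars1 and yars1, which have 11 probes. These genes have the highest cytosolic differences, each averaged from these same probes, which favours such a count.

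By structural class, 6 of 8 class I genes lay above 0, with a median of 0.18, and 4 of 9 class II genes, with a median of -0.007. In class I, qars1, mars1 and lars1b stood beside iars1 on the other side, and in class II tars1 stood beside aars1. The 5 measured enzymes of the multisynthetase complex were qars1, mars1, lars1b, kars1 and iars1, with a median of 0.63. The range of these enzymes ran from -0.37 (iars1) to 0.94 (qars1), and the 3 scaffold genes lay within it. The log2 difference of aimp1a was -0.03 ± 0.08 and that of aimp1b 0.08 ± 0.15, both genes for the scaffold that is also cut to a secreted cytokine in mammals. For aimp2, the scaffold that holds the complex together, it was -0.19 ± 0.21. The RNA values of aimp2 were 0.03 and 0.16 in the controls and 0.16 and -0.36 in the cadmium RNAs, so it was low in cadmium replicate 2 alone.

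Among mitochondrial enzymes the differences were smaller, and 13 of 14 genes lay above 0 (92.9%, against 56.9% of all genes). None had an unadjusted p under 0.05. The group median was 0.088 and the highest gene was wars2, the mitochondrial tryptophanyl enzyme, at 0.34 ± 0.23. Its array values were 0.04, 0.05, 0.69 and 0.57, and its RNA values -0.14 and -0.20 in the controls and -0.12 and 0.46 in the cadmium RNAs. The difference therefore lay almost wholly in cadmium replicate 2. The mitochondrial tyrosyl enzyme gene yars2 (0.28 ± 0.37) showed the same more sharply. It was at -0.22 and -0.22 on arrays 1 and 2 and at 0.92 and 0.64 on arrays 3 and 4, and the 2 cadmium RNAs differed by 1.00. The seryl, prolyl and leucyl enzyme genes sars2, pars2 and lars2 were at 0.18 ± 0.15, 0.17 ± 0.12 and 0.10 ± 0.10. The arginyl enzyme gene rars2, at -0.22 ± 0.15, was the single mitochondrial gene below 0, with array values of -0.20, -0.56, -0.03 and -0.10. Its RNA values were 0.04 and 0.18 in the controls and -0.27 and 0.05 in the cadmium RNAs, and its 3 probes were at -0.32, -0.35 and near 0. The other 8 mitochondrial genes lay between 0.02 (aars2) and 0.13 (nars2).

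The median of the mitochondrial genes was -0.064 and -0.090 in control replicates 2 and 3, -0.067 in cadmium replicate 1 and 0.18 in cadmium replicate 2. Cadmium replicate 2 was the highest of the 4 RNAs in 9 of the 14 genes, against 38.7% of all genes. Cadmium replicate 1 was the highest in 2 of the 14, against 21.6% of all genes. In 12 of 14 cadmium replicate 2 lay above cadmium replicate 1, with a median gap of 0.25. Without cadmium replicate 2, 7 of 14 mitochondrial genes lay above 0 and the median was -0.004. The ovary and oocyte markers ran the same way, cadmium replicate 2 being highest for 23 of 23 and cadmium replicate 1 lowest for 21. Their part in the mitochondrial values was not tested, and in whole-tissue RNA a change in the share of a cell type and a change in RNA per cell cannot be told apart. As a group the cytosolic genes had no such gap. Cadmium replicate 2 lay above replicate 1 in 6 of 17, against 8334 of 15554 for all genes, and the median gap was -0.045. Single genes did have it, with gaps of 0.47 for qars1, 0.33 for tars1 and 0.31 for mars1, but -0.045 for lars1b. The part of the ovary and oocyte markers in these values was not tested either. The 4 leading cytosolic genes stood above the controls in each cadmium RNA taken alone. They lead by the size of their difference in these same RNAs, which favours such a pattern. Against the mean of the controls, qars1 was at 0.70 in cadmium replicate 1 and 1.17 in cadmium replicate 2, mars1 at 0.53 and 0.84, lars1b at 0.65 and 0.61, and tars1 at 0.30 and 0.63.

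**Figure D2:**
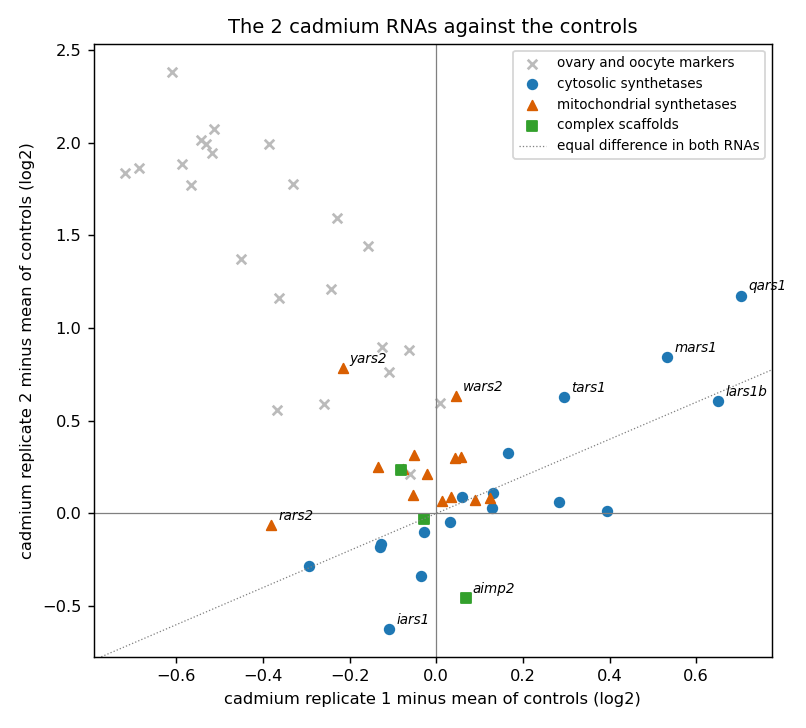
Each point is a gene, placed by the log2 value of cadmium replicate 1 (horizontal axis) and cadmium replicate 2 (vertical axis) minus the mean of the 2 controls, with equal values along the dotted line. Cytosolic genes spread on both sides of the line with qars1, mars1, lars1b and tars1 at the upper right, and mitochondrial genes lie mostly above the line. The 23 ovary and oocyte markers all lie above the line, high in cadmium replicate 2, and most of them at the upper left.

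For 11 amino acids both a cytosolic and a separate mitochondrial enzyme were measured. In 7 of these pairs both genes lay on one side of 0, and in 6 the cytosolic difference was the higher. The widest gaps in that direction were those of the methionyl pair (mars1 at 0.69, mars2 at 0.06), the leucyl pair (lars1b at 0.63, lars2 at 0.10) and the threonyl pair (tars1 at 0.46, tars2 at 0.08). For the tryptophanyl pair it ran the other way, with wars1 at -0.15 and wars2 at 0.34, as it did for the isoleucyl pair, with iars1 at -0.37 and iars2 at 0.04. The gap between the cadmium RNAs, replicate 2 minus replicate 1, was higher for the mitochondrial enzyme in 9 of 11 pairs. These gaps are values with no test.

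**Figure D3:**
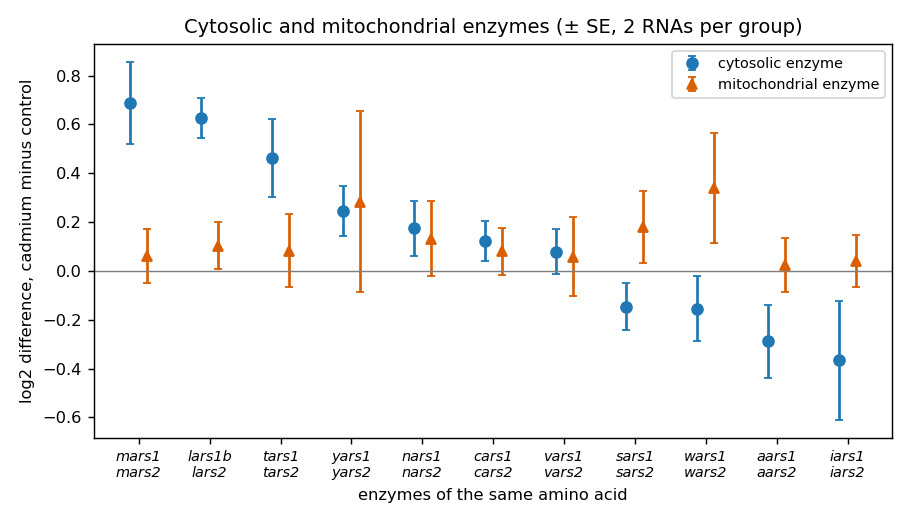
Log2 difference of cadmium minus control (vertical axis) with its moderated SE (2 RNAs per group) for the cytosolic and the mitochondrial enzyme of 11 amino acids. The methionyl, leucyl and threonyl pairs have the cytosolic enzyme at 0.46 or more and the mitochondrial one at 0.10 or less, and the error bars of yars2 are the widest.

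Most genes also shared an unequal dye response. The dye effect, the mean of the 4 deposited ratios, was below 0 in 32 of 34 members (94.1%), against 56.8% of all genes, with a median of -0.11 against -0.013. It was lowest for aars1 (-0.26), farsa (-0.23) and sars1 (-0.19) and highest for aimp2 (0.18). The loop removes this effect from the differences above, because each RNA was read once in each dye. Probes of one gene agreed in sign for 11 of the 16 members that have several (68.8%), against 58% of such genes on the whole array. The widest disagreement about side was that of vars1, the valyl enzyme gene, at 0.29 and -0.13, named after its values were seen.

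Genes that act beside the synthetases on tRNA lay mostly above 0, with a median of 0.10. This held in 29 of 33 measured cases (87.9%, against 56.9% of all genes). The list and those below were chosen with earlier results of these data known. Their shares are therefore descriptions and no test. The gene tufm, for the mitochondrial elongation factor that carries charged tRNA to the ribosome, was at 0.56 ± 0.13, with array values of 0.83, 0.52, 0.41 and 0.48. The RNase P subunit genes rpp30 and rpp40, whose products trim the leading end of tRNA precursors, were at 0.28 ± 0.09 and 0.40 ± 0.17, and trnt1, which adds the terminal CCA, at 0.20 ± 0.09. Each of these 4 genes was higher on all 4 arrays and without overlap between the groups. They were chosen by moderated t, which favours such a pattern. Of the 33 measured, 5 had positive values on every array and 0 had negative values on every array. Both cadmium RNAs exceeded both controls in 8 and fell below them in 0. The upward shares among all genes were 7.99% and 11.7%. Without cadmium replicate 2 rpp40 was at 0.21, and without cadmium replicate 1 at 0.60, each time with 1 cadmium RNA left. Over the whole list cadmium replicate 2 was the highest RNA in 20 of 33 cases, against 38.7% of all genes. It was so for 23 of 23 ovary and oocyte markers, whose part was not tested. For tufm and trnt1 the order was the reverse, with 0.40 and 0.15 in cadmium replicate 1 and 0.16 and 0.05 in cadmium replicate 2. Of the list, 2 genes (tufm and rpp30) had an unadjusted limma p under 0.05, beside 1.07% of all genes on the higher side, and 0 passed after adjustment.

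In the list of the amino acid starvation response, where ATF4 and its targets stand, 25 of 36 measured genes lay above 0. This is 69.4%, against 56.9% of all genes, with a median of 0.065. All 4 arrays were higher for 4 genes and lower for 4, beside 7.99% and 6.9% of all genes. Both cadmium RNAs lay above both controls for 4 and below for 5, beside 11.7% and 10.2% of all genes. The best known members of the list were split. The asparagine synthetase gene asns, a classic ATF4 target, was at 0.32 ± 0.09 (array values of 0.37, 0.16, 0.43 and 0.34), and cth, for the cysteine-forming enzyme of transsulfuration, at 0.49 ± 0.09. By contrast, one of both zebrafish ATF4 genes, atf4b, was at -0.40 ± 0.14 with array values of -0.08, -0.48, -0.51 and -0.55. The partner factor gene cebpb was at -0.66 ± 0.15 and the stress factor gene ddit3 (CHOP) at -0.45 ± 0.17, both lower on all 4 arrays. By moderated t, cth, cebpb, asns and atf4b lead the list, which favours values on one side on every array. The other ATF4 gene, atf4a, was at 0.17 ± 0.33, with -0.36 in cadmium replicate 1 and 0.54 in cadmium replicate 2, and chac1, a glutathione-degrading ATF4 target, at 0.40 ± 0.28. For chac1 the order of the cadmium RNAs was the reverse, with 0.57 in replicate 1 and -0.16 in replicate 2. At an unadjusted limma p under 0.05 there were 2 genes above 0 (cth and asns) and 3 below (cebpb, atf4b and atf3), beside 1.07% and 0.945% of all genes, and 0 passed after adjustment. The stress factor gene atf3, named after its values were seen, was at -0.55 ± 0.19 and lower on all 4 arrays. Without cadmium replicate 2 ddit3 was at -0.25, atf4a at -0.28 and chac1 at 0.77, and without cadmium replicate 1 chac1 was at 0.036. In that last setting, which leaves 1 cadmium RNA, cebpb was at -0.84, ddit3 at -0.65 and atf4a at 0.62. Among cytosolic synthetases described as ATF4 targets in mammals, 6 of 11 lay above 0 (median 0.12), and among the other cytosolic ones 4 of 6 (median 0.076), qars1 being the highest of the latter.

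**Figure D4:**
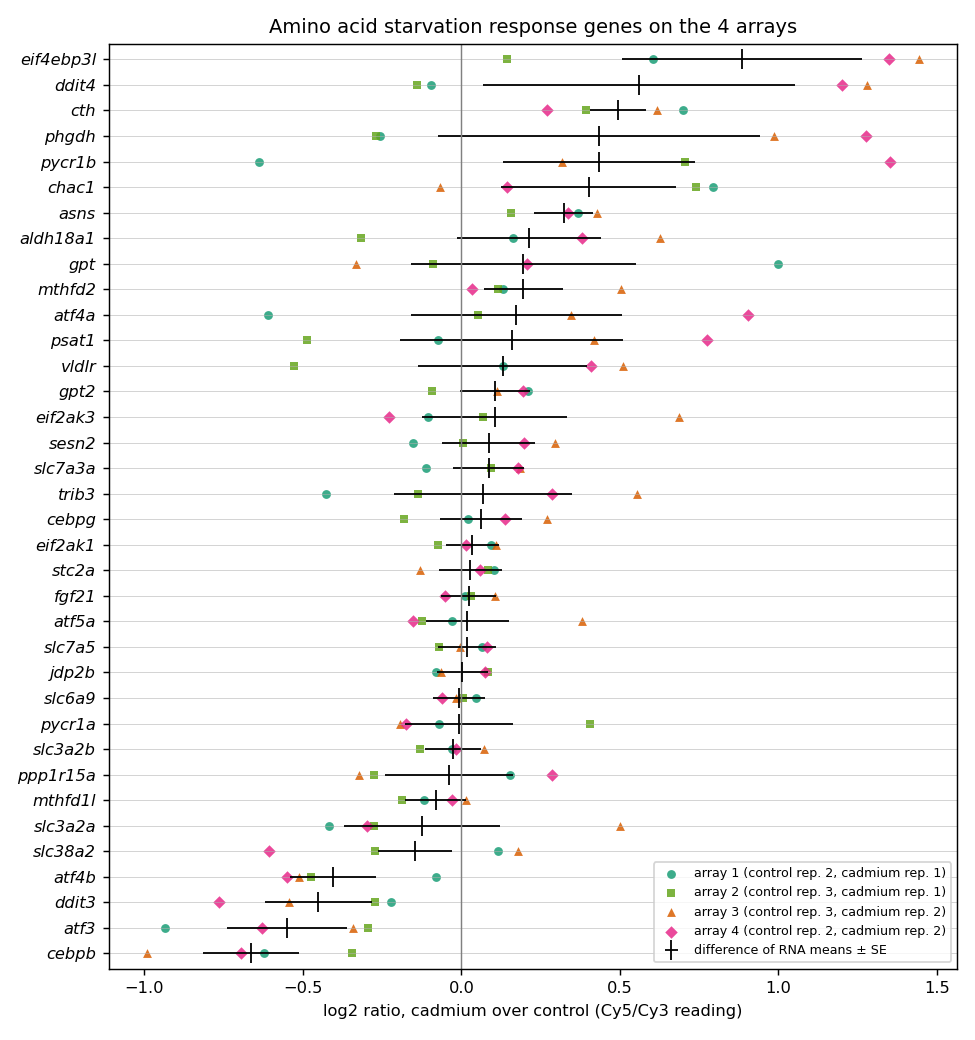
Log2 ratio of cadmium over control (horizontal axis) for 36 amino acid starvation response genes (rows), with the 4 arrays as coloured points and the difference of RNA means ± moderated SE in black. All points of asns and cth lie right of 0 and all points of atf4b, ddit3 and cebpb lie left of it.

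Amino acid sensing genes around the kinase TOR, to which leucyl-tRNA synthetase reports leucine in mammalian cells, were split, with 15 of 28 above 0 (53.6%, near the 56.9% of all genes) and a median of 0.055. The sesn3 gene, for a sestrin that holds TOR back, was at -0.80 ± 0.29 and depdc5, for a subunit of another inhibitory complex, at -0.33 ± 0.15. On the higher side were sec13 (0.39 ± 0.10), shared between that pathway and vesicle coats, and the S6 kinase gene rps6kb1b (0.23 ± 0.12). For sesn3 the cadmium RNAs differed widely, at -0.02 and -0.78. Without cadmium replicate 2 sesn3 was at -0.42, depdc5 at -0.16 and rps6kb1b at 0.36. Without cadmium replicate 1 depdc5 was at -0.50, rps6kb1b at 0.11 and sesn3 at -1.18. Of this list 1 gene, sec13, had an unadjusted limma p under 0.05 with all RNAs, beside 2.02% of all genes, and 0 passed after adjustment.

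Leaving out 1 RNA at a time, 21 of the 34 synthetase and scaffold genes kept their side of 0, 14 of 17 cytosolic and 6 of 14 mitochondrial ones among them. Only qars1, mars1, lars1b, yars1 and cars1 stayed within 1.5 times of their value. Shares of all genes are not given for either count. The probes of cars1 lay on both sides of 0, at 0.30, -0.06 and 0.13. For tars1 the value was 0.30 without cadmium replicate 2. Of the RNAs left out in turn, only cadmium replicate 1 changed the count of 0 genes called, and the cause was not tested. Without that RNA limma called 1456 genes (9.36% of all) and 6 members (17.6%), namely qars1 (1.17, adjusted p = 0.012), yars2 (0.78, adjusted p = 0.023), mars1 (0.84, adjusted p = 0.030), wars2 (0.63, adjusted p = 0.033), lars1b (0.61, adjusted p = 0.035) and tars1 (0.63, adjusted p = 0.049). There cadmium replicate 2, the RNA with the highest ovary markers, alone stood for the treatment and was assumed to vary like the controls.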

How the data were processed

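The deposited file holds a log2 ratio of both dyes for every probe on each of 4 arrays, with 0 values missing. How the authors corrected background, normalized and filtered is not given in the sources consulted. The submitters' processing notes name limma, and the labels' protocol names version 5.7 of the Agilent two-colour labelling. Base 2 was inferred from the largest value, 6.14. Column medians lay near 0 (-7.46e-05, -0.000451, 0.000711 and 0.00373), so the arrays appear centred, in a way that stays unknown. The direction, Cy5 over Cy3, is limma's convention and fits the order of RNAs in the array titles. Arrays of one dye orientation correlated at -0.04 and -0.22 across probes. Such arrays share no RNA, so over all probes the differences of separate RNA pairs did not run alike.

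Probes were named from the platform's annotation: 23717 had 1 gene symbol, 0 several and 19886 are unnamed here. The RefSeq gene list held the identifier of 23534 of the named probes, with 0 symbols changed. Probes of a gene were averaged on each array. The 4 ratios of a gene were solved for 3 differences between RNAs and 1 dye effect, and 2 cadmium RNAs were compared with 2 controls in limma (lmFit, eBayes; version 3.58.1 under R 4.3.3) with a two-sided test adjusted over 15554 genes at 0.05, with 2 residual and 1.91 prior degrees of freedom. The number of arrays limits the precision.

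Full values are given by a rule: the 8 cytosolic and 5 mitochondrial genes of largest moderated t in size, all scaffolds, the 4 whose cadmium RNAs differ most, the 3 of largest dye effect, 4 genes of each neighbouring list by moderated t, and atf4a, atf4b, asns, ddit3 and chac1. Members and lists were chosen with earlier results of these data known. Alternatives were the median over probes, scaled or quantile normalized arrays, arrays as units, a variance filter and each RNA left out.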

Additional observations from a re-analysis of the deposited data

How the results depend on the processing

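The count of 0 genes called, and of 0 synthetase and scaffold genes called, was the same with the median over probes, scaled or quantile normalized arrays, arrays as units with a dye term, and with a filter on genes of low variance. With arrays as units and no dye term 2 genes were called, neither of them a synthetase. Leaving out 1 RNA gave between 0 and 1456 genes and between 0 and 6 synthetase genes, the higher counts without cadmium replicate 1; the cause was not tested. The 34 genes named by rule include those of the neighbouring lists. Under the 6 settings that leave out no RNA they kept their side of 0 and of the threshold in all 203 values. Arrays as units and the variance filter do not change the difference itself, so there the side of 0 was fixed in advance. The same holds for the median over probes in genes of 1 or 2 probes. With 1 RNA left out, the sign turned for 4 of these named genes. They were aimp1b (between -0.081 and 0.23), aimp2 (between -0.46 and 0.068), yars2 (between -0.22 and 0.78) and atf4a (between -0.28 and 0.62). The cause was not tested. Most synthetase genes that turned are not among the named ones. Of all 34 synthetase and scaffold genes, 21 kept their side, 6 of 14 mitochondrial ones among them. The cytosolic median moved between 0.030 and 0.13 over all settings, and the mitochondrial one between -0.004 and 0.23. No paired analysis was possible because the control and cadmium RNAs share only replicate number 2. With 2 RNAs per group and no signal over background in the files, small differences cannot be resolved. Larger ones did not pass either, as the smallest adjusted p of any gene in the main limma fit was 0.57.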
